A study of Rattus norvegicus with 6 samples.

Results

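The 10 genes Cd68, Cd163, Csf1r, Aif1, Tyrobp, Fcer1g, Mrc1, Cd14, Gpnmb and Trem2, which are widely used as genes of macrophages, were followed in the renal cortex of rats given potassium bromate, an oxidant that injures the kidney. They were found on the arrays as every non-control probe whose transcript accession belongs to 1 of the 10 symbols, which gave 19 of 61537 probes and 10 of 15645 genes with a symbol. Total RNA came from male Sprague-Dawley rats, bought at 5 weeks of age and kept on a basal diet, of which 3 received water and 3 received potassium bromate at 100 mg/kg/day, in both cases over 4 weeks. The labels call the animals of a group biological replicates, and each animal has 1 Agilent array of its own, with a single dye (Cy3). A level is a probe's log2 signal less that of its array's 75th percentile, so that 1 unit is a doubling. Means come with their SD, a difference is the bromate mean less the water mean with its standard error (SE), and n = 3 animals per group throughout.

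Macrophages of the kidney sit between the tubules, clear dying cells and debris, and are kept alive by the growth factors CSF1 and IL-34 through the receptor encoded by Csf1r. Many of their surface receptors have no signalling tail of their own and work through the adaptors encoded by Tyrobp (DAP12) and Fcer1g, which pass the signal to the kinase SYK. Trem2 encodes a lipid-sensing receptor that pairs with DAP12, Cd14 encodes a co-receptor that hands bacterial lipopolysaccharide to TLR4, and Gpnmb encodes a transmembrane glycoprotein of lysosomes and the cell surface, known as a target of the transcription factor MITF. Cd14, Cd68 and Gpnmb are not limited to macrophages. In whole cortex, fewer cells of a type and less RNA per cell cannot be told apart.

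The promoters of Gpnmb and Cd14 are shown because these were the members that rose. RefSeq windows of 250 bases before to 50 bases after the annotated start (build GRCr8, written on the strand of the gene) were held for 7 of the 10 members, Cd68, Cd163, Csf1r, Mrc1, Cd14, Gpnmb and Trem2. Capitals mark matches on either strand to GAGGAA, the core read by ETS factors such as PU.1 of myeloid cells, or to CATGTG, the core of the M-box read by MITF, with 1 more base in Gpnmb where the longer M-box word described after the sequences was matched.
Gpnmb, chr4:79340878-79341177, plus strand: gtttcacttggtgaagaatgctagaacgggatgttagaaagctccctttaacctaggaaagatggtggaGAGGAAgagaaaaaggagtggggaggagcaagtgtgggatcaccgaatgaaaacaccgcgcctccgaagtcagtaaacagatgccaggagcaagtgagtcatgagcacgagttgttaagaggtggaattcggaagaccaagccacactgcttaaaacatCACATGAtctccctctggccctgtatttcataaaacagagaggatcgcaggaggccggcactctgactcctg
Cd14, chr18:28611109-28611408, minus strand: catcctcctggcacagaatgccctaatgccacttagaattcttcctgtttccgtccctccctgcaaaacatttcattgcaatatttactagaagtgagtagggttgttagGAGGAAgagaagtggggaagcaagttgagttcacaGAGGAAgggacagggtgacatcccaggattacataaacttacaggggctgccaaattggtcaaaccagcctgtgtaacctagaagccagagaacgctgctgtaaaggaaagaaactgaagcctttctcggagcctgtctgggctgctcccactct
The Gpnmb window held 1 ETS core, beginning 181 bases before the start, and 1 M-box core, read on the opposite strand and beginning 22 bases before it. The M-box core there lies inside the longer TCATGTG, a word searched after the sequence had been seen and held by 3.56% of all 33469 promoter windows. The Cd14 window held 2 ETS cores and no M-box core. The ETS core was present in 6 of the 7 members' windows, all but that of Cd163, against 27.6% of all windows. The M-box core was present in 3 of 7 (Cd68, Mrc1 and Gpnmb) against 14.0%. The longer PU.1 word GAGGAAGT, held by 2.42% of all windows, had no match in the 7 windows. The core of lysosomal E-boxes, CACGTG, held by 6.42%, had none either. These are matches of letters only, and nothing about binding was measured.

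Between 57.89% and 63.05% of probes per array were well above background, the lowest share on bromate replicate 1, and none was saturated. Water replicate 1 had a slide to itself, and 1 further slide carried the remaining 5 arrays. Markers of cortex were measured, with all 8 proximal tubule genes and all 5 podocyte genes tested. Of 37781 probes tested with limma and Benjamini-Hochberg adjustment, 2717 were higher under bromate (7.19%) and 2872 lower (7.6%), together 14.8%, and the median difference was -0.02. Leaving out 1 water array at a time gave 2064 higher and 2310 lower (replicate 1 left out), 871 and 785 (replicate 2) and 1101 and 1087 (replicate 3). Leaving out 1 bromate array gave 1784 and 1527 (replicate 1), 951 and 850 (replicate 2) and 1238 and 1320 (replicate 3).

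Under bromate, Gpnmb and Cd14 rose, with every bromate animal above every water animal, and the other macrophage genes did not pass the test. Of the 19 probes, 15 entered the test, representing 9 genes. All 15 were well above background on all 6 arrays, so none entered through its higher group alone. Of these 15, 3 were higher, 0 were lower and 12 were not called, against 7.19% higher among all probes tested. The median over the 15 was 0.21. At an unadjusted limma p under 0.05 the counts were 4 higher, with Cd68 added, and 0 lower. The share of 7.19% belongs to the adjusted threshold. No share of all probes or genes is given at the unadjusted one, so counts at it, here and below, have no background. All 3 bromate values lay above all 3 water values for 4 of the 15 probes, against 20.0% of all probes, and below them for 0, against 21.1%.

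**Figure D1:**
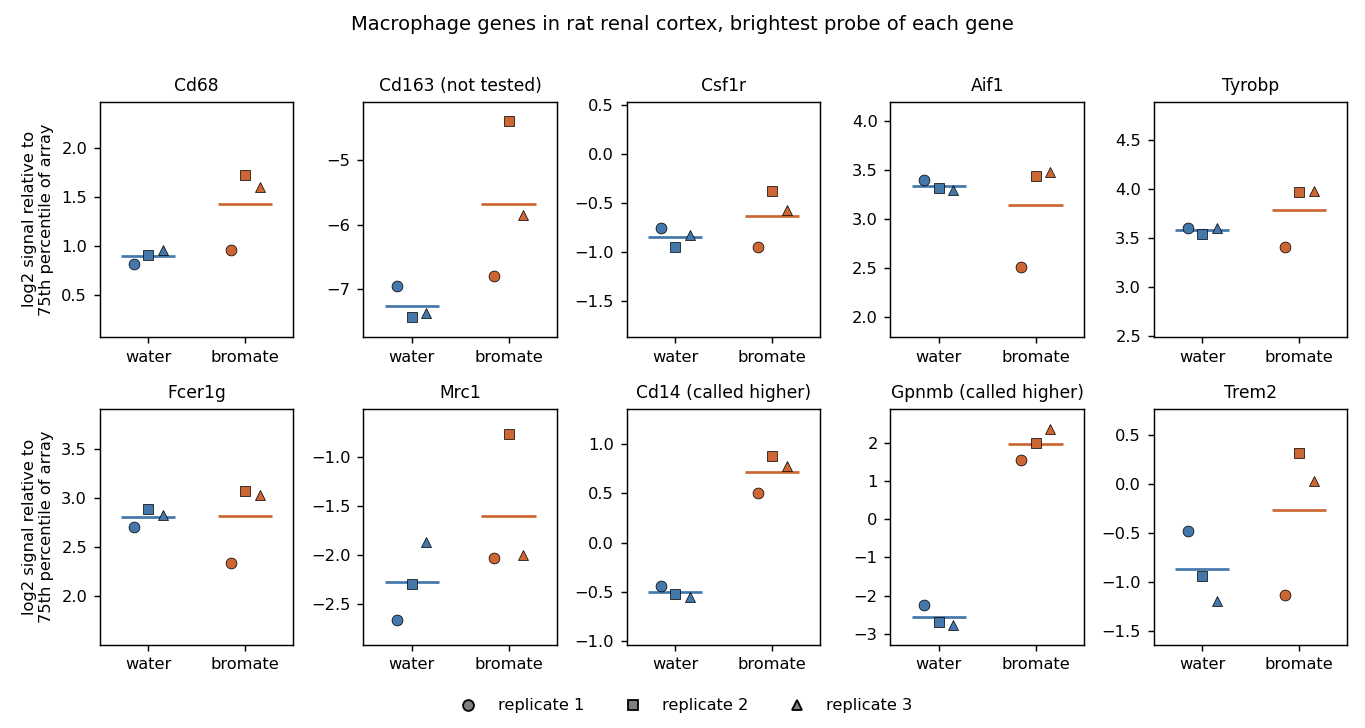
Level of the brightest probe of each of the 10 genes (log2 signal relative to the 75th percentile of the array, with a vertical axis of its own in each panel) in 3 water and 3 bromate animals. Symbols give the replicate and bars the group mean. Gpnmb and Cd14 are higher in all 3 bromate animals, while in the other panels bromate replicate 1 lies among or below the water values, or, for Cd68 and Cd163, level with or just above the highest of them.

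Gpnmb had the largest difference of the 9 tested genes. Its 1 probe read -2.25, -2.69 and -2.77 in the water animals and 1.56, 2.01 and 2.37 in the bromate animals. The groups were separated by more than 3 log2 units at their nearest values, and the spread within either group was small beside that gap. The mean went from -2.57 ± 0.28 to 1.98 ± 0.41, a 23.5-fold rise (4.55 ± 0.24, limma adjusted p = 0.00102). The adjusted p stayed between 0.00331 and 0.00979 on leaving out any 1 array.

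Cd14 rose on both of its probes. The brighter read -0.44, -0.52 and -0.56 under water and 0.51, 0.88 and 0.78 under bromate, a 2.35-fold rise (1.23 ± 0.12, limma adjusted p = 0.0042). The dimmer read -3.76, -3.91 and -3.86 under water and -2.48, -2.23 and -2.13 under bromate, a 2.95-fold rise (1.56 ± 0.12, limma adjusted p = 0.00223), which was 0.72 with normexp and quantile normalization, still called. On both probes every bromate animal was above every water animal, and both calls held on leaving out any 1 array (adjusted p 0.00484 to 0.0262).

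Cd68, which encodes a lysosomal membrane protein of phagocytes, split the bromate animals. Its brighter probe read 0.82, 0.91 and 0.96 under water and 0.96, 1.73 and 1.60 under bromate. Replicate 1 stood at the top of the water values, and replicates 2 and 3 lay clearly above them. The difference of 0.53 ± 0.21 did not pass (limma adjusted p = 0.137). Without bromate replicate 1 it was 0.77 and passed (adjusted p = 0.0199). Without bromate replicate 2 it was 0.38, and without bromate replicate 3 it was 0.45, and neither passed (limma adjusted p = 0.306 and 0.287). The second probe gave 0.50 ± 0.21 (adjusted p = 0.157) and, without bromate replicate 1, 0.70 (adjusted p = 0.0529).

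The adaptors were bright and close to level between the groups. Tyrobp read 3.61, 3.54 and 3.61 under water and 3.41, 3.97 and 3.98 under bromate (0.20 ± 0.17, limma adjusted p = 0.461). The brighter probe of Fcer1g, the gene of the gamma chain shared by Fc receptors, read 2.71, 2.89 and 2.83 under water and 2.34, 3.08 and 3.03 under bromate (0.00 ± 0.21, adjusted p = 0.991). In both genes bromate replicate 1 was the lowest of the 6 animals and bromate replicates 2 and 3 were the highest. The second Fcer1g probe placed these animals likewise, with a difference of 0.02 ± 0.20.

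Aif1, which encodes the macrophage calcium-binding protein IBA1, had bromate replicate 1 as the lowest of the 6 animals on every probe. Its 3 probes differed by -0.19 ± 0.27, -0.28 ± 0.26 and -0.11 ± 0.25 (limma adjusted p 0.501 to 0.787). On the brightest, water animals read 3.4, 3.31 and 3.29 and bromate animals 2.51, 3.44 and 3.48. On each of the 3 probes bromate replicate 1 was 0.89 to 0.95 below the mean of the other bromate animals, which on the second probe lay inside the water range. Without it the 3 differences were 0.13, 0.02 and 0.18, with a changed sign and none called.

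Among the receptors, Csf1r read -0.75, -0.95 and -0.83 under water and -0.95, -0.38 and -0.57 under bromate on its brighter probe (0.21 ± 0.16, limma adjusted p = 0.403), and its second probe gave 0.11 ± 0.21. Trem2 read -0.48, -0.94 and -1.19 under water and -1.13, 0.32 and 0.03 under bromate. Its bromate values spanned the widest range of the tested members, with replicate 1 inside the water range and replicates 2 and 3 above it. The difference of 0.61 ± 0.41 did not pass (adjusted p = 0.344), nor did the 1.04 found without bromate replicate 1 (adjusted p = 0.0623). It was 0.32 without bromate replicate 2, 0.46 without bromate replicate 3 and 0.45 without water replicate 3.

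Scavenger receptors of resident macrophages were dim. The brighter probe of Mrc1, which encodes the mannose receptor CD206, read -2.66, -2.29 and -1.86 under water and -2.03, -0.76 and -2.0 under bromate (0.68 ± 0.40, limma adjusted p = 0.287), so that only bromate replicate 2 lay outside the water range, and without that animal the difference was 0.26. Its second probe was well above background on 1 array of each group and was not tested. Cd163, which encodes the haemoglobin scavenger receptor, was not well above background on any water array with any of its 3 probes. Under bromate, 1 of these probes was well above background on 1 array, at -4.39 on replicate 2, and the others were not on any array.

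**Figure D2:**
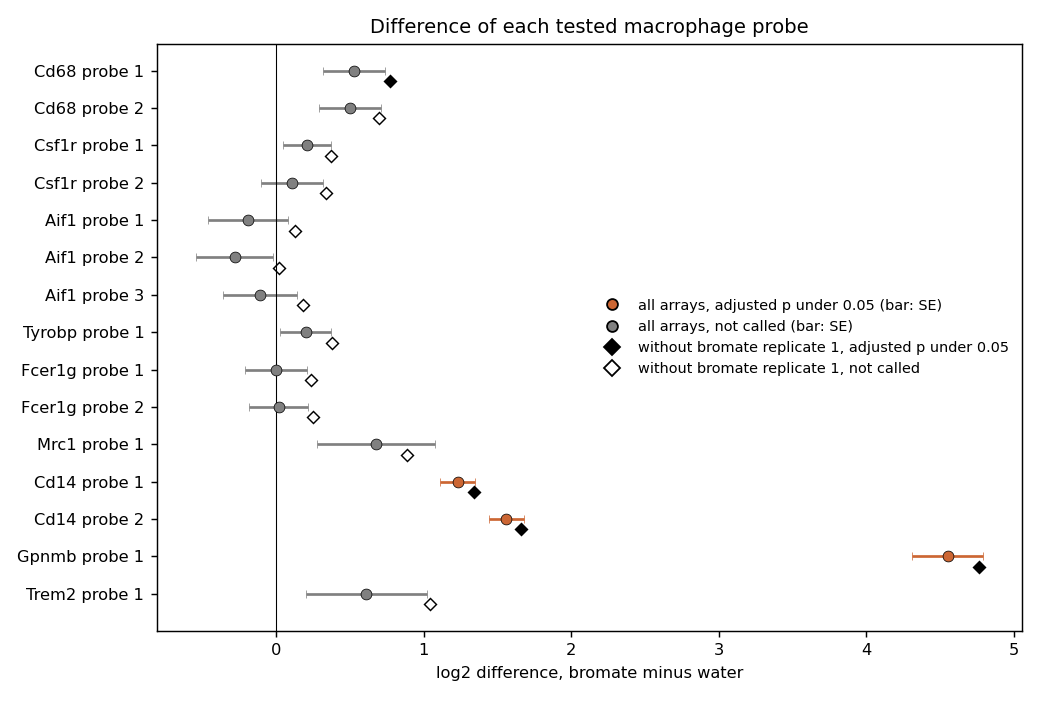
Log2 difference, bromate minus water, of the 15 tested probes of 9 genes (circles with SE bars), with the value found without bromate replicate 1 (diamonds). Probes of a gene are numbered from brightest to dimmest. Gpnmb (4.55) and the Cd14 probes (1.23 and 1.56) are called with all arrays. Bromate replicate 1 was the lowest bromate animal on all 15 probes, so that leaving it out must move each of them to the right. This adds 1 Cd68 probe to the calls, which was not called without bromate replicate 2 or 3 (limma adjusted p = 0.306 and 0.287).

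The spread within the bromate group was shared by the members. The SD of the bromate animals was above that of the water animals on 15 of 15 tested probes, against 48.5% of all probes tested. The median SD over these probes was 0.101 under water and 0.405 under bromate, while over all probes it was 0.145 and 0.137. Bromate replicate 1 was the lowest of the 3 bromate animals on 15 of 15 probes, against 32.1% of all probes. On 12 of 15 it lay over 0.5 log2 units below the mean of the other bromate animals, against 8.42% of all probes. For bromate replicates 2 and 3 that share of all probes was 3.85% and 4.05%. The median gap of replicate 1 was -0.68 for the members and 0.03 for all probes. In the alternative with array weights its weight was 0.55, against 1.35 and 1.41 for the other bromate arrays, the lowest being 0.43 for water replicate 1. The probes share the 6 RNA samples, so that these counts are not independent. Without bromate replicate 1, 4 of the 15 probes were higher and 0 lower, against 4.72% higher and 4.04% lower among all probes, and the median over the members was 0.38. As this animal was the lowest bromate animal on every member probe, leaving it out raises every difference by arithmetic.

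**Figure D3:**
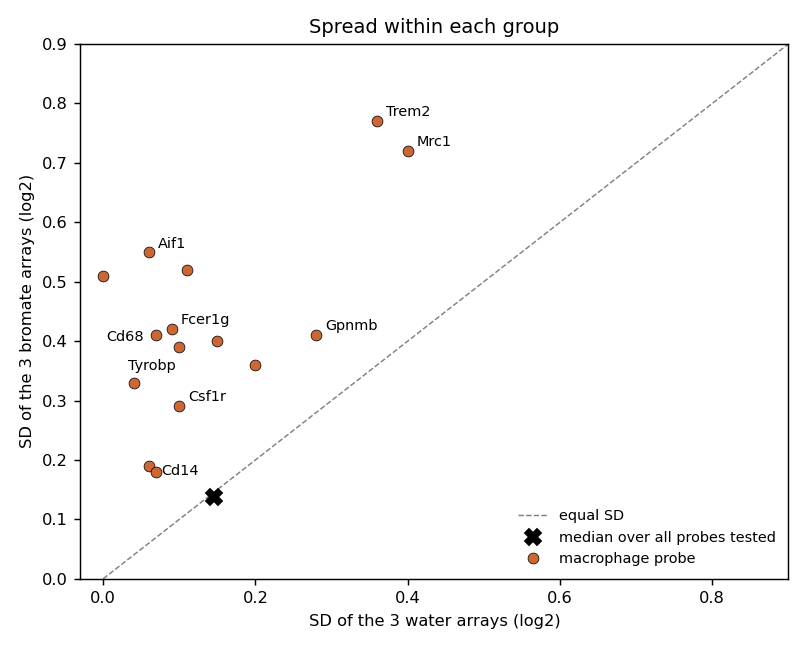
SD of the 3 bromate animals against SD of the 3 water animals (log2) for the 15 tested macrophage probes, each gene's brightest probe named. The dashed line marks equal SD and the cross the median of all probes tested (0.145 and 0.137). All 15 points lie above the line, with Trem2 (0.77) and Mrc1 (0.72) highest and the Cd14 probes (0.19 and 0.18) lowest.

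Gpnmb stood well above its water level in all 3 bromate animals, replicate 1 included. Relative to the water mean, it stood 4.14, 4.58 and 4.95 higher in bromate replicates 1, 2 and 3. The mean change of the other 8 tested genes, 1 probe each, was -0.06, 0.77 and 0.53 in the same animals. In replicate 1, 5 of these 8 were below their water mean and 3 above, from -0.82 for Aif1 to 1.02 for Cd14. In replicates 2 and 3 all 8 were above it, Aif1 least (0.11 and 0.15).

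Other leukocyte genes placed the bromate animals in a like way. Pan-leukocyte genes had 1 higher and 1 lower of 24 tested, with a median of 0.15. Over all 11572 tested genes with a symbol the median was -0.02, and 8.76% were higher and 8.54% lower (6.34% and 4.56% without bromate replicate 1). Among the pan-leukocyte genes, bromate replicate 1 was the lowest bromate animal for 22 of the 24, against 33.9% of all genes. Their mean change from water was -0.23 in bromate replicate 1, 0.29 in replicate 2 and 0.32 in replicate 3, with water animals between -0.08 and 0.09. For monocyte genes that count was 26 of 31, with changes of -0.17, 0.26 and 0.32, 1 higher and 0 lower, and a median of 0.10. Without bromate replicate 1, 4 monocyte genes and 3 pan-leukocyte genes were higher. In bromate replicate 1 the general leukocyte gene Ptprc (CD45) read -0.45, against 0.05 to 0.23 under water and 0.18 and 0.31 in the other bromate animals. Adgre1, which encodes the macrophage marker F4/80, read -1.56, against -0.26 to -0.01 under water and -0.15 and -0.24. Neither passed (limma adjusted p = 0.741 and 0.416). Itgam, the gene of CD11b, was well above background on 2 water arrays and all bromate arrays and differed by 0.67 ± 0.56 (adjusted p = 0.45).

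T cell, NK cell and dendritic cell genes placed bromate replicate 1 low as well. It was the lowest bromate animal for 9 of 11 T cell, 4 of 6 NK cell and 3 of 4 dendritic cell genes, against 33.9% of all genes. For mast cell genes the count was 3 of 4, and for B cell genes 1 of 3. Of the 11 T cell genes tested 0 passed in limma, 1 having an unadjusted p under 0.05, the median was -0.34, and their mean change was -0.70, -0.22 and -0.24 in bromate replicates 1, 2 and 3. The changes were -0.57, 0.17 and -0.34 for the NK cell genes and -0.63, 0.38 and -0.15 for the dendritic cell genes. Neutrophil and proximal tubule genes did not place it so, with 2 of 6 and 2 of 8. Of the 6 neutrophil genes 1 was higher, the receptor gene Csf3r (0.69 ± 0.14, adjusted p = 0.0291, lost without water replicate 1 or 3 or bromate replicate 2 or 3, up to 0.0933). Csf3r was well above background on 1 water array and all bromate arrays, so that its water level lay near background. The neutrophil list changed by 0.38, 0.17 and 0.53 in bromate replicates 1, 2 and 3. At an unadjusted limma p under 0.05, 3 of the 6 were higher and 0 lower, and 3 of the 6 differences were positive. S100a8 and S100a9 differed by 1.13 ± 0.31 and 0.97 ± 0.28 and did not pass (limma adjusted p = 0.0594 and 0.0718). On both, every bromate animal was above every water animal. The remaining tested neutrophil genes went the other way, Camp by -0.21 ± 0.15, Np4 by -0.16 ± 0.13 and Prtn3 by -0.27 ± 0.25, and did not pass. The neutrophil enzyme genes Elane and Mmp8 were among 7 neutrophil genes that did not reach the test. Among 4 mast cell genes and 4 dendritic cell genes tested 0 were called by limma, and 0 had an unadjusted p under 0.05. Of 3 B cell genes 1 was lower, Pax5 (-0.92 ± 0.22, adjusted p = 0.0439, held only without water replicate 1, up to 0.127 otherwise). The melanocyte genes Tyr and Tyrp1, of a cell type that also makes Gpnmb, did not reach the test, and Mlana read -2.16, -3.67 and -3.11 under bromate against -2.11 to -1.52 under water (adjusted p = 0.0918), and passed as lower without bromate replicate 1 (-1.62, adjusted p = 0.0309). Proximal tubule genes, of which 4 of 8 fell, were nearly level among the bromate animals, with changes of -0.47, -0.56 and -0.51 (2 fell where replicate 2 or 3 of either group was left out). The part of these cells in the members' values was not tested.

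**Figure D4:**
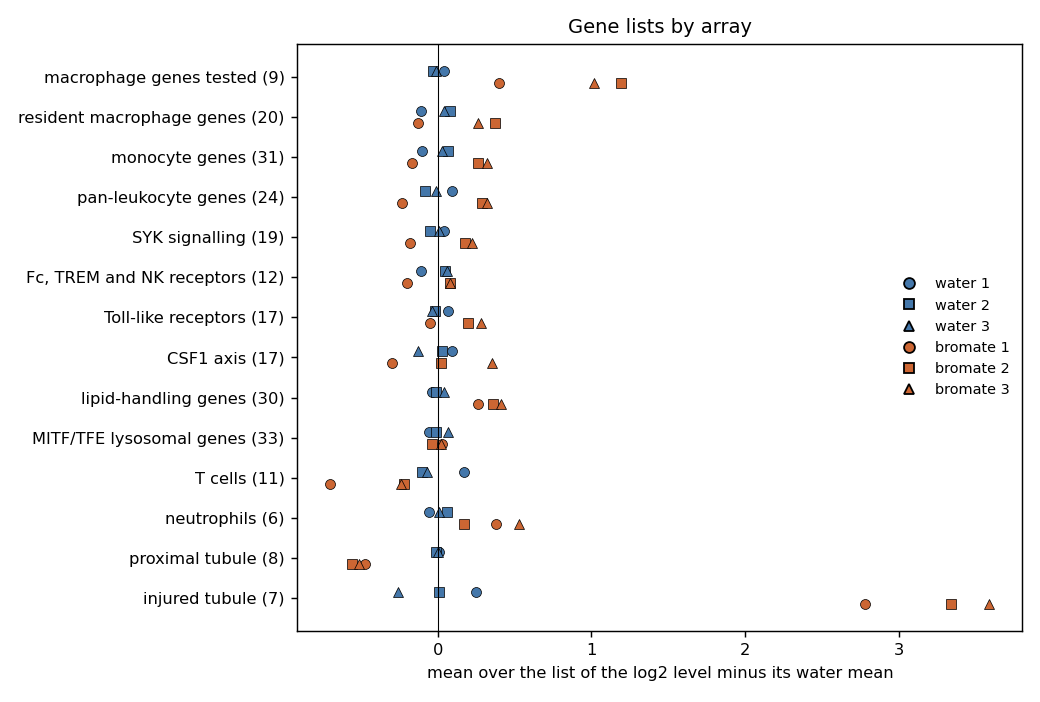
Mean over each gene list of the log2 level minus the gene's water mean, for the 3 water (upper) and 3 bromate (lower) animals, with the number of genes tested in parentheses. Bromate replicate 1 lies left of the other bromate animals in every list but the MITF/TFE lysosomal, neutrophil and proximal tubule lists. This includes the injured tubule list (2.78 against 3.34 and 3.59). In the proximal tubule list the 3 lie between -0.56 and -0.47.

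Of 7 injured tubule markers tested, 5 rose and 0 were lower, also on leaving out any 1 array, against 8.76% higher among all genes. The adhesion gene Vcam1 (-0.40, limma adjusted p = 0.152) and the neutrophil gelatinase lipocalin gene Lcn2 did not pass. Lcn2 read -1.14, 1.86 and 2.17 under bromate against -4.64 to -1.60 under water (adjusted p = 0.0853). The mean change of the 7 was 2.78, 3.34 and 3.59 in bromate replicates 1, 2 and 3. Bromate replicate 1 was the lowest bromate animal for 5 of the 7, against 33.9% of all genes. Spp1, which encodes osteopontin and is made by tubule cells and macrophages, read 2.95, 2.81 and 2.95 under water and 7.60, 7.80 and 7.79 under bromate (4.82 ± 0.09, limma adjusted p = 7.41e-05). Cd44, the hyaluronan receptor gene, rose 4.3-fold (2.10 ± 0.15). The part of injured tubule cells in the rises of Gpnmb and Cd14 was not tested.

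The genes whose 6 values lay nearest to those of Gpnmb, each set to its own water mean, included Abcb1b, Adra1d and Spp1 among 19309 probes of other genes, with root-mean-square distances of 0.20, 0.28 and 0.30 log2 units over the 6 arrays. Abcb1b encodes a drug efflux pump and Adra1d an adrenergic receptor. On these probes Abcb1b rose 21.9-fold (7.32-fold on its brighter probe) and Adra1d 20.2-fold. The serine protease gene Prss22 was also among the 5 nearest, but no water array was well above background for it, so that its place depends on signals below background and its rise is a bound, at least 3.97-fold. For the brighter Cd14 probe the nearest of 19308 were Ier5l, Sh3bp2, Slc4a7, Psmb10 and Emp3, at 0.05 to 0.10, which rose 2.26-fold to 2.49-fold on the probes matched. The brighter Sh3bp2 probe rose 2.21-fold, and its call was lost without water replicate 2 or bromate replicate 2. Nearness was taken over the bromate values too, so that rises of a like size follow from the choice, for Gpnmb and for Cd14.

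Of the ligand and growth factor genes, Il34 rose and Csf1 did not pass. Il34 read 4.85, 4.79 and 4.66 under water and 5.33, 5.24 and 5.37 under bromate, a 1.46-fold rise (0.55 ± 0.09, limma adjusted p = 0.0178). All bromate animals were above all water animals, but the call was lost without water replicate 2 or 3 or bromate replicate 2 or 3 (adjusted p up to 0.0635). Csf1 differed by 0.35 ± 0.18 (adjusted p = 0.222). Ccl2, a chemokine gene, read 0.32, 0.28 and 2.13 under bromate against -1.27 to -0.31 under water. Its difference of 1.67 ± 0.55 did not pass (limma adjusted p = 0.0966). A list of growth factors, chemokines and receptors, not all of which act on macrophages, had 17 tested genes. Of these 2 were higher and 1 was lower, against 8.76% and 8.54% of all tested genes. The median was -0.07, and 7 of the 17 differences were positive. The higher genes were Il34 and Csf3r, the latter also in the neutrophil list and near background under water. The lower gene was Cxcl12, a chemokine gene, at 3.72-fold (-1.90 ± 0.35, adjusted p = 0.0221, lost without water replicate 2 or 3 or bromate replicate 2, up to 0.0781). No gene of the list was higher without water replicate 3 or bromate replicate 2 or 3.

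Of the genes that work with Cd14, Ly96 and Irak3 rose. Ly96, which encodes MD-2, the lipopolysaccharide-binding partner of TLR4, read -1.74, -1.74 and -1.72 under water and -0.96, -0.86 and -0.85 under bromate (1.80-fold, 0.84 ± 0.07, limma adjusted p = 0.00334). Irak3, which encodes an inhibitor of Toll-like receptor signalling, rose 2.44-fold (1.28 ± 0.13, adjusted p = 0.00513), and both calls held on leaving out any 1 array. Tlr4 itself missed the threshold at 0.78 (adjusted p = 0.0966) and passed it at 1.04 once bromate replicate 1 was left out (adjusted p = 0.0353). Of 17 genes of Toll-like receptor signalling tested 2 were higher and 1 lower, against 8.76% and 8.54% of all tested genes, with a median of 0.01. The lower gene was Tollip, at 1.45-fold (-0.53 ± 0.07, adjusted p = 0.0117), lost without water replicate 2 or bromate replicate 2 (up to 0.0525).

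A mixed list of Fc, TREM-family, C-type lectin and NK receptors and adaptors, not all of which signal through DAP12 or the Fc receptor gamma chain, showed 0 calls in 12 tested genes by limma, with 1 unadjusted p under 0.05 and a median of -0.04. Fcgr2a, the brightest, differed by -0.02 ± 0.13 (adjusted p = 0.937), and rat Fc receptor genes are similar enough that probes may cross-hybridise. Over all tested genes 8.76% were higher and 8.54% lower. Without bromate replicate 1, 2 of the 12 were higher, against 6.34% of all tested genes. These were Fcgr1a (0.53, limma adjusted p = 0.0478) and Fcgr2b (0.75, limma adjusted p = 0.0385). In the SYK pathway downstream, with a median of 0.18 over 19 genes, 1 was higher and 1 lower, against 8.76% and 8.54% of all tested genes. The higher gene was Pik3ap1 (0.42 ± 0.10, adjusted p = 0.0401, lost on leaving out any 1 array). The lower gene was Plcg2, a phospholipase gene, with -0.77, -1.12 and -0.84 under water and -2.55, -2.18 and -1.99 under bromate (2.52-fold, -1.33 ± 0.17, adjusted p = 0.00999). Its call held on leaving out any 1 array.

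Genes of lipid handling and lysosomal digestion, many of which accompany Trem2 in lipid-laden macrophages, gave 6 higher and 1 lower of 30, with a median of 0.21. Among all tested genes 8.76% were higher and 8.54% lower. Spp1 led these. Lgals3, which encodes galectin-3, rose 4.13-fold (2.05 ± 0.12, limma adjusted p = 0.00109), the protease gene Ctsd 2.49-fold (1.32 ± 0.12, adjusted p = 0.00326) and the cholesterol exporter gene Abca1 3.1-fold (1.63 ± 0.25, adjusted p = 0.0146, lost without water replicate 2 or 3, up to 0.0577). Igf1, a growth factor gene, was 3.5-fold lower (adjusted p = 0.048, lost on leaving out any 1 array). With water replicate 2 or 3 left out, 4 genes rose. Many of these genes are also expressed by tubule cells.

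MITF and the related factors TFEB, TFEC and TFE3 switch on lysosomal genes. Mitf read 1.84, 1.81 and 1.88 under water and 1.69, 1.55 and 1.61 under bromate (-0.23 ± 0.08, limma adjusted p = 0.103), and Tfe3 rose 1.33-fold (0.41 ± 0.07, adjusted p = 0.0212, held only without water replicate 1, up to 0.0763 otherwise). Of 33 genes of this group tested 2 were higher and 3 lower, against 8.76% and 8.54% of all tested genes, with a median of 0.00. The higher genes were Tfe3 and Ctsd. The lower ones were the proton pump subunit genes Atp6v0d2 (2.23-fold) and Atp6v0d1 (1.49-fold, lost without water replicate 3 or bromate replicate 2, adjusted p up to 0.0521) and the coactivator gene Ppargc1a (1.39-fold, lost on leaving out any 1 array). Leaving out 1 array gave 1 higher gene, or 2 where it was water replicate 1, and 2 lower genes, or 1 where it was water replicate 3 or bromate replicate 2.

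Genes of resident and repair-type macrophages gave 4 higher and 3 lower of 20, against 8.76% and 8.54% of all tested genes, with a median of 0.19. C1qb, a complement gene made mainly by macrophages, read 3.28, 3.49 and 3.59 under water and 3.95, 4.64 and 4.57 under bromate (1.91-fold, 0.93 ± 0.21, limma adjusted p = 0.0367, held only without bromate replicate 1, up to 0.105 otherwise). The haem oxygenase gene Hmox1 rose 4.34-fold (2.12 ± 0.24) and the iron exporter gene Slc40a1 1.8-fold (lost without water replicate 3 or bromate replicate 1 or 3, adjusted p up to 0.0613). The lipid transfer gene Pltp was 1.91-fold lower (adjusted p = 0.0129). Without bromate replicate 1, 6 were higher, among them C1qa (0.76), C1qb (1.15) and C1qc (0.86), and 1 was lower, against 6.34% and 4.56% of all tested genes. Leaving out water replicate 2 or 3 or bromate replicate 2 gave 2 higher genes, bromate replicate 3 gave 1, and each array left out gave 1 lower gene.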

How the data were processed

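Renal cortex RNA of 6 rats (3 water, 3 potassium bromate) was read on Agilent arrays. The intensity values are the processed signals that the authors deposited, for which the submitters' processing notes name Agilent Feature Extraction 10.7; the well-above-background and outlier flags come from the same files. The deposited value table holds ratios of signal to the 75th percentile of each array, within 0.792% at worst, and served as an alternative. From the deposited intensities, log2 signal minus the log2 75th percentile over 61537 non-control probes was computed, outlier spots were left out, and probes well above background on at least 3 of 6 arrays were tested with limma 3.58.1 in R 4.3.3 (lmFit, eBayes), with Benjamini-Hochberg adjustment over all 37781 and a threshold of 0.05. The model was tested on simulated data. Probes were named by accession through RefSeq's GRCr8 gene table; 28206 had 1 symbol and 33331 none, and a gene with several probes is represented in lists by its brightest. A bound (at least) sets the bright group against the higher of the dim probe and the lowest signal well above background. Genes were named as the members, the called and defining genes of each list, and the 5 probes nearest to Gpnmb and to Cd14, of which 1 is not reported here. Tlr4, Mlana, Fcgr1a, Fcgr2b, C1qa, C1qc, Elane, Mmp8, S100a8, S100a9, Camp, Np4, Prtn3, Ccl2, Tyr, Tyrp1, Vcam1 and Lcn2 were named outside that rule, after their values were seen. The members and lists were chosen with earlier results of these data known. Alternatives covered scaling, background correction, filters, variance model, slide, replicate number and each array left out. The number of arrays limits the precision.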

Additional observations from a re-analysis of the deposited data

How the results depend on the processing

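Gpnmb and both Cd14 probes kept their direction and stayed called under every alternative that could be run for them. On leaving out 1 array Gpnmb ranged from 4.36 to 4.76, and under the other alternatives from 3.87 to 4.76. The Cd14 probes ranged from 1.15 to 1.34 and from 1.48 to 1.66 on leaving out 1 array, and from 1.06 to 1.31 and from 0.72 to 1.64 otherwise, the lowest with normexp and quantile normalization. Member probes called numbered 3 or 4 higher and 0 lower, save with 1 probe per gene. There 2 of 9 were higher and 0 lower, the dimmer Cd14 probe not being in that fit. The brighter Cd68 probe was also called with array weights (0.63, limma adjusted p = 0.0463). Over all probes, 1091 were higher and 1023 lower with no filter on dim probes, where 61535 were tested. With the replicate number as a block 829 were higher and 757 lower, and the same 3 member probes as in the fit without it stayed called. Correlations of same-numbered animals' deviations were 0.06, 0.07 and -0.09, against -0.12 to 0.09 for differently numbered animals. They show no strong shift shared by same-numbered animals. With 3 animals per group they cannot tell whether the numbers pair the animals. On leaving out 1 array the counts over all probes ranged from 871 to 2064 higher and from 785 to 2310 lower. Signs changed only for differences that were never called. The dimmest Aif1 probe was 0.03 with array weights, and the Fcer1g probes were -0.05 and -0.03 with slide as a block. On leaving out 1 array the dimmer Csf1r probe ranged from -0.02 to 0.34, the Aif1 probes from -0.36 to 0.13, from -0.45 to 0.02 and from -0.28 to 0.18, and the Fcer1g probes from -0.13 to 0.24 and from -0.10 to 0.25. The cause was not tested. With 3 animals per group, differences as small as those of the adaptors were not resolved.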
